A study of Homo sapiens with 9 samples.

Results

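Small nucleolar RNA (snoRNA) host noncoding genes were followed in Hep3B cells, a human hepatocellular carcinoma line. The genes were chosen by symbol from the deposited table of read counts: any symbol made of SNHG (small nucleolar RNA host gene) and a number, plus GAS5 and ZFAS1. This gave 30 of the 60683 genes listed, of which 27 had enough reads to be tested. RNA was sequenced from 3 groups of 3 biological replicates, each exposed for 24 hours. The first group received vehicle (DMSO) at 20% O2, the second received vehicle at 1% O2 and the third received the hypoxia-inducible factor (HIF) inhibitor 32-134D at 1% O2. The labels give no dose, all groups come from the same cell line without a genetic change, and the effect of 32-134D was measured here at 1% O2 only.

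A snoRNA host gene is transcribed and spliced like a messenger RNA, and its introns, rather than its exons, carry the small RNAs. Box C/D snoRNAs guide 2′-O-methylation and H/ACA snoRNAs guide pseudouridylation of ribosomal RNA, and the related small Cajal body RNAs (scaRNAs) guide the same changes in spliceosomal RNAs. The spliced host RNA of genes such as GAS5 and SNHG1 has little capacity to code for protein, is engaged by ribosomes and is removed by nonsense-mediated decay, and several of these genes start transcription at a stretch of pyrimidines, the 5′ terminal oligopyrimidine (5′TOP) start shared with ribosomal protein genes. Read counts on a host gene cover its annotated exons, some of which include a small RNA.

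According to RefSeq, 28 of the 30 genes contain 145 small RNAs, made up of 121 box C/D snoRNAs, 20 H/ACA snoRNAs and 4 scaRNAs. SNHG14 alone holds 83 box C/D snoRNAs, and GAS5 holds 11 snoRNAs of both kinds. The snoRNAs below were taken from GENCODE version 29 (GRCh38) to show what the genes with the largest changes carry. In the box C/D snoRNAs the C box and the last D box are in capitals, and in the H/ACA snoRNA SNORA17A the ACA box that lies just before its 3′ end is in capitals. The 3 snoRNAs of ZFAS1 are related copies.
SNORD12C in ZFAS1, chr20:49278940-49279028, plus strand: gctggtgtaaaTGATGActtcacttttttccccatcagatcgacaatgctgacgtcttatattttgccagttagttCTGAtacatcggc
SNORD12B in ZFAS1, chr20:49280319-49280409, plus strand: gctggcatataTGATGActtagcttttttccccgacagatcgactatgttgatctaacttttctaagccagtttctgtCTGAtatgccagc
SNORD12 in ZFAS1, chr20:49280683-49280772, plus strand: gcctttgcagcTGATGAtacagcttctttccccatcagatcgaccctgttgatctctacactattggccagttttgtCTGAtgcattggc
SNORD50B in SNHG5, chr6:85677589-85677658, minus strand: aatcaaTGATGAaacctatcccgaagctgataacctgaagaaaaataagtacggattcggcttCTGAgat
SNORD116-1 in SNHG14, chr15:25051477-25051571, plus strand: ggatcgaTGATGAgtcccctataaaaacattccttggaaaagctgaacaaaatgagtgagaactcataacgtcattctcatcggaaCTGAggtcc
SNORA17A in SNHG7, chr9:136726747-136726879, minus strand: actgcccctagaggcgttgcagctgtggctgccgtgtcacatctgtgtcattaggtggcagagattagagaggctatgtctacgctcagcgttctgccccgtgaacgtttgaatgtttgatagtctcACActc

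The libraries held from 6013980 to 40549699 counts, and replicate 2 of vehicle at 20% O2 was the smallest. Levels are given as CPM, TMM-scaled counts relative to the size of each library. Fold changes come from 1 edgeR quasi-likelihood fit of 22672 genes over the 9 libraries. A gene is described as risen, fallen or called where the fold change exceeded 1.5 and the Benjamini-Hochberg false discovery rate (FDR) was under 0.05. CA9, VEGFA, NDRG1 and ANGPTL4, which are HIF target genes, were higher at 1% O2 and lower with 32-134D in 4 of 4 cases. With 32-134D all 4 were still called higher than in vehicle at 20% O2, with a median log2 fold change of 0.86. All 12 hepatocyte lineage markers, albumin (ALB) among them, were detected, with a summed level of 12032 to 20376 CPM per library. Of 8 markers of other cell types, CD3E and VWF had 0 counts, and COL1A1 (2.73 to 10.4 CPM) and LUM (1.88 to 12.9 CPM) were the highest. The summed level of the 8 ran from 9.73 to 11.3 CPM in vehicle at 20% O2 and 7.64 to 8.91 CPM in vehicle at 1% O2. With 32-134D it ran from 12.4 to 25.0 CPM. Of the 4 markers that were tested, 0 were called higher and 2 lower in vehicle at 1% O2 against 20% O2. With 32-134D at 1% O2 against vehicle, 3 were higher and 0 lower. The called shares over all genes tested were 19.5% and 20.3%, then 16.2% and 13.7%. The part of these markers in the results was not tested. Replicate 3 of 32-134D differed from replicates 1 and 2 of its group by a chi-square per degree of freedom of 36.4 and 32.5, whereas replicates 1 and 2 differed by 2.0.

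The 30 genes together took little of each library, and their composition changed with the condition. They took 0.120% to 0.123% of the counts in vehicle at 20% O2, 0.139% to 0.141% in vehicle at 1% O2 and 0.134% to 0.143% with 32-134D. SNHG14, the host of the SNORD115 and SNORD116 clusters in the imprinted region of chromosome 15, supplied a mean of 36.6% of these counts at 20% O2, 6.67% at 1% O2 and 24.7% with 32-134D. GAS5 moved the other way, from 5.44% to 11.6% and then 8.52%. SNHG7 took 2.58%, 7.22% and 3.72% in the same order of groups. Without SNHG14, the other genes took 0.0727% to 0.0851% of all counts at 20% O2, 0.130% to 0.131% at 1% O2 and 0.0970% to 0.115% with 32-134D, and these 3 ranges did not overlap.

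**Figure D1:**
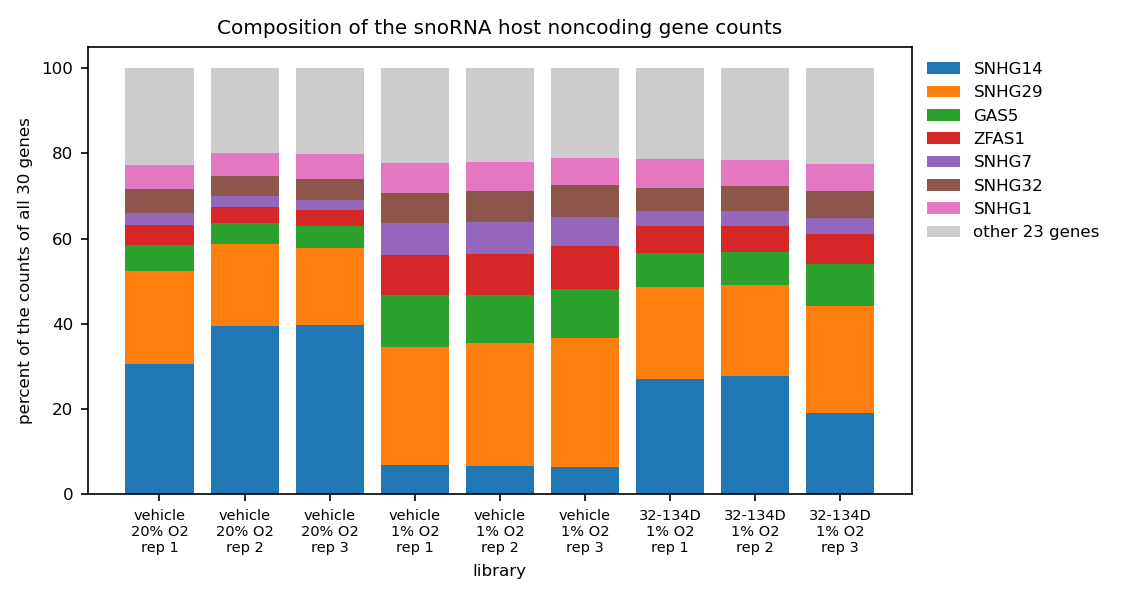
Share of the counts of all 30 snoRNA host noncoding genes (percent, vertical axis) taken by 7 named genes and by the other 23 genes in each of the 9 libraries (horizontal axis). The SNHG14 segment is smallest in the 3 libraries of vehicle at 1% O2, where its mean share is 6.67%.

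Levels of different genes were compared per kilobase of annotated exon, joined over all annotated transcripts of a gene. This length covers 3756 of the 3927 bases of SNHG1 and 1247 of the 4715 bases of SNHG6. The order of the genes depends on it, and which transcripts were present in these cells was not measured. SNHG29, the host of SNORD49A, SNORD49B and SNORD65, was highest in every group, with 60.2 ± 5.67 CPM per kilobase (mean ± SD, n = 3) at 20% O2, 118 ± 6.05 at 1% O2 and 79.9 ± 9.92 with 32-134D. At 20% O2 it was followed by SNHG32 at 32.6 ± 3.09, SNHG6 at 22.1 ± 2.82 and ZFAS1 at 21 ± 3.28 CPM per kilobase, and the last pair differed by less than their SDs. At 1% O2 the order after SNHG29 was ZFAS1 at 66.7 ± 3.1, SNHG32 at 62.2 ± 2.61 and GAS5 at 49.1 ± 1.16 CPM per kilobase. SNHG14, whose annotated exons sum to 43324 bases, had the highest CPM of the host genes at 20% O2 but reached only 9.73 ± 1.37 CPM per kilobase there. SNHG18 and SNHG28 had 0 counts in all libraries and SNHG27 had 8, so these 3 genes were not tested.

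**Figure D2:**
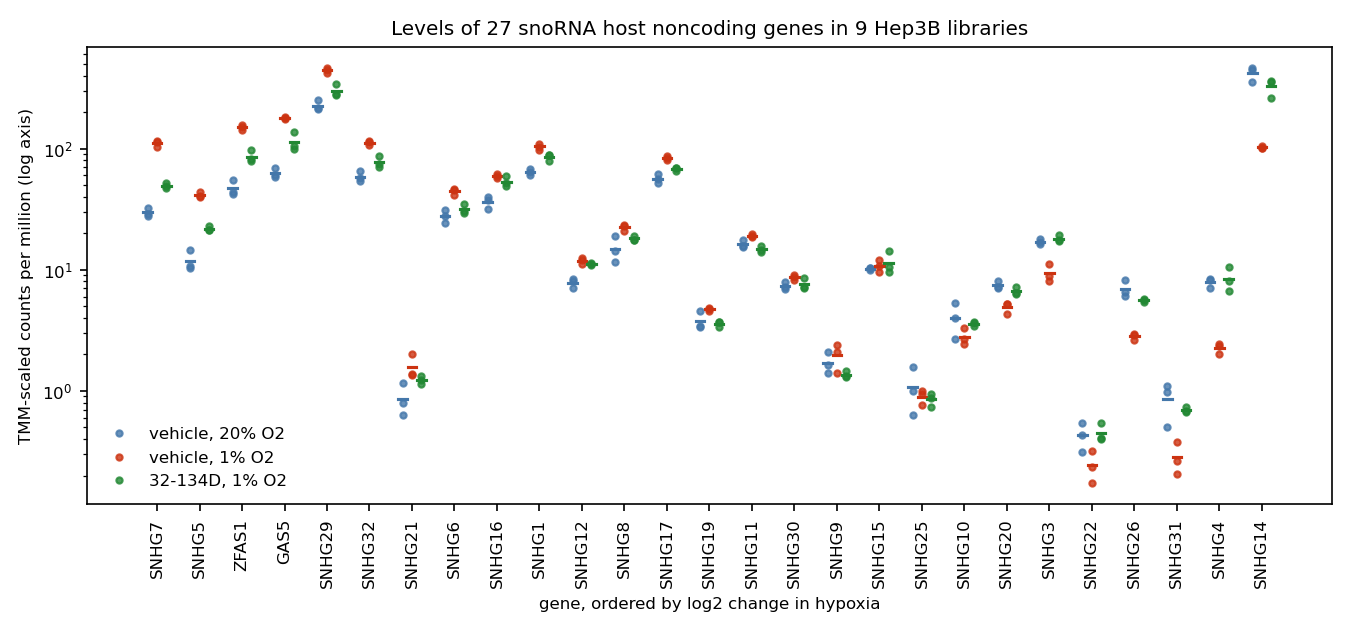
TMM-scaled CPM (log axis) of the 27 tested genes, ordered by their change in hypoxia. Points are single libraries and bars are group means (n = 3); zero counts are not drawn. The 4 genes at the left are highest in vehicle at 1% O2 and the genes at the right are lowest there.

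Hypoxia changed these genes in both directions. In vehicle at 1% O2 compared with 20% O2, 11 of the 27 tested genes rose, 6 fell and 10 were not called. The higher count depended on the processing: 6 were higher with libraries scaled to their total counts, 7 when every library had to hold 10 counts, and DESeq2 called 9 higher and 7 lower. In the fit with 11 higher, 19.5% of all genes tested were called higher and 20.3% lower, against 40.7% and 22.2% of the host genes. The shares of all genes under the other settings were not counted. The median log2 fold change of the host genes was 0.32, and over all genes tested it was 0.00. Of the 4500 other tested genes annotated as noncoding, 7.47% were called higher and 22.8% lower, with a median of -0.46.

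The largest increases were in SNHG7, SNHG5, ZFAS1 and GAS5, whose positions are given on GRCh38. SNHG7 (ENSG00000233016, chromosome 9, 136721366 to 136728184), the host of the H/ACA snoRNAs SNORA17A and SNORA17B, had 32.4, 28.9 and 27.8 CPM in vehicle at 20% O2, 114, 115 and 104 CPM in vehicle at 1% O2 and 48.9, 47.2 and 51.7 CPM with 32-134D. The 3 groups did not overlap, and the gene rose 3.73-fold in hypoxia (log2 fold change 1.90 ± 0.08 SE, FDR 2.31e-10). With 32-134D it fell 2.25-fold from its level in vehicle at 1% O2 (log2 fold change -1.17 ± 0.08, FDR 3.99e-08) and was 1.66-fold above vehicle at 20% O2 (FDR 6.36e-05).

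SNHG5 (ENSG00000203875, chromosome 6, 85660950 to 85678748), the host of SNORD50A and SNORD50B, had 14.5, 10.7 and 10.4 CPM in vehicle at 20% O2, 40.8, 44.2 and 39.7 CPM in vehicle at 1% O2 and 21.3, 22.9 and 21.2 CPM with 32-134D. Every library at 1% O2 with vehicle was above every other library. The log2 fold change was 1.81 ± 0.12 in hypoxia (FDR 1.03e-08), -0.93 ± 0.11 with 32-134D at 1% O2 (FDR 6.67e-06) and 0.88 ± 0.12 for 32-134D against vehicle at 20% O2 (FDR 0.000286). ZFAS1 (ENSG00000177410, chromosome 20, 49278178 to 49295738), the antisense neighbor of ZNFX1, had 55.5, 42.1 and 43.6 CPM in vehicle at 20% O2, 142, 150.3 and 156 CPM in vehicle at 1% O2 and 82.4, 78.4 and 97 CPM with 32-134D. Its groups were again separate, with a 3.17-fold increase in hypoxia (log2 fold change 1.66 ± 0.11, FDR 8.14e-09) and a 1.74-fold decrease with 32-134D (log2 fold change -0.80 ± 0.10, FDR 1.51e-05).

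GAS5 (ENSG00000234741, chromosome 1, 173863900 to 173868882), named growth arrest specific 5 because its RNA accumulates in arrested cells, had 69.6, 57.9 and 60.4 CPM in vehicle at 20% O2, 183, 174 and 178 CPM in vehicle at 1% O2 and 105, 98.4 and 136 CPM with 32-134D. Replicate 3 of 32-134D was above the other 2 libraries of its group, and the groups did not overlap. GAS5 rose 2.84-fold in hypoxia (log2 fold change 1.51 ± 0.11, FDR 2.95e-08). The decrease with 32-134D was 1.58-fold (log2 fold change -0.66 ± 0.11, FDR 0.000124), close to the fold threshold, and it came below that threshold without replicate 1 (-0.55) or replicate 2 (-0.56) of 32-134D, with libraries scaled to their total counts (-0.47) and when every library had to hold 10 counts (-0.56). For 32-134D against vehicle at 20% O2, GAS5 was higher by 0.85 on the log2 scale (FDR 0.000172).

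The other 7 genes that rose in hypoxia changed by less. SNHG29 had 250.5, 217 and 211 CPM in vehicle at 20% O2, 419, 446 and 464 CPM in vehicle at 1% O2 and 282, 276 and 343 CPM with 32-134D, a log2 fold change of 0.97 ± 0.09 in hypoxia (FDR 5.32e-07). With 32-134D its log2 fold change of -0.56 passed the FDR (0.000151) and not the fold threshold, which it passed without replicate 3 of 32-134D (-0.67) or replicate 1 of vehicle at 1% O2 (-0.60). SNHG32, listed in GENCODE version 29 as protein-coding and the host of SNORD48 and SNORD52, had 64.8, 54 and 57.2 CPM in vehicle at 20% O2, 107, 114 and 116 CPM in vehicle at 1% O2 and 70.7, 74.6 and 86.3 CPM with 32-134D. Its log2 fold changes were 0.93 ± 0.09 in hypoxia (FDR 5.75e-07) and -0.54 ± 0.09 with 32-134D, the latter below the fold threshold with all libraries and past it without replicate 3 of 32-134D (-0.62).

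SNHG1, the host of 8 box C/D snoRNAs from SNORD22 to SNORD31, had 64, 60.9 and 68.4 CPM in vehicle at 20% O2, 110, 104 and 98.2 CPM in vehicle at 1% O2 and 88.6, 78.7 and 87.9 CPM with 32-134D. SNHG16, the host of SNORD1A, SNORD1B and SNORD1C, had 39.6, 31.6 and 37.9 CPM in vehicle at 20% O2, 61.2, 58.8 and 57.2 CPM in vehicle at 1% O2 and 48.8, 51.5 and 59.8 CPM with 32-134D. SNHG6, the host of SNORD87, had 31.1, 27.6 and 24.1 CPM in vehicle at 20% O2, 41.7, 46.1 and 45.9 CPM in vehicle at 1% O2 and 29.4, 30.4 and 35.1 CPM with 32-134D. In these 3 genes the vehicle groups did not overlap, and the log2 fold changes in hypoxia were 0.69 ± 0.08, 0.69 ± 0.10 and 0.70 ± 0.11, with FDRs of 3.09e-06, 2.71e-05 and 5.07e-05. The SNHG6 change was just under the fold threshold without replicate 3 of vehicle at 20% O2 (0.58), and none of the 3 was called when libraries were scaled to their total counts, which lowered the median of all genes tested by 0.21. SNHG1 (0.58) and SNHG16 (0.58) also lost their calls when every library had to hold 10 counts. SNHG6 (0.56) lost its call with all libraries thinned to the smallest. None of the 3 was called with 32-134D, where the log2 fold changes were -0.29, -0.15 and -0.49.

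SNHG12 and SNHG21 passed the thresholds narrowly. SNHG12, which carries SNORD99 and 3 H/ACA snoRNAs, had 8.39, 7.07 and 8.0 CPM in vehicle at 20% O2, 12.6, 12 and 11.1 CPM in vehicle at 1% O2 and 11.3, 11 and 11.3 CPM with 32-134D. Its log2 fold change in hypoxia was 0.59 ± 0.12 (FDR 0.000521), just above the threshold of 1.5-fold, and its level with 32-134D overlapped that in vehicle at 1% O2. SNHG21, the host of SCARNA15, was near 1 CPM, with 0.789, 0.628 and 1.16 CPM in vehicle at 20% O2, 1.38, 2.03 and 1.35 CPM in vehicle at 1% O2 and 1.33, 1.14 and 1.23 CPM with 32-134D, and a log2 fold change of 0.71 ± 0.28 in hypoxia at an FDR of 0.0465. Of the 9 fits that each left out 1 library, 6 lost the SNHG12 call (0.54 to 0.58) and 6 lost the SNHG21 call (0.52 to 0.80). Both calls were also lost with DESeq2 (0.54 for SNHG12, and an FDR of 0.107 for SNHG21), with DESeq2 size factors in edgeR (0.54, and an FDR of 0.0588) and with total counts as the scaling (0.38 and 0.50). With all libraries thinned to the smallest, the log2 fold changes were 0.24 (FDR 0.286) and 0.20 (FDR 0.772). The 95% interval of SNHG21 ran from 0.11 to 1.32.

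SNHG14 had the largest decrease in hypoxia. SNHG14 (ENSG00000224078, chromosome 15, 24978583 to 25419462) had 354, 449 and 463 CPM in vehicle at 20% O2, 105, 101 and 100.4 CPM in vehicle at 1% O2 and 356, 359.6 and 262 CPM with 32-134D. All libraries of vehicle at 1% O2 were below all others, and replicate 3 of 32-134D was the lowest of its group. The gene fell 4.12-fold in hypoxia (log2 fold change -2.04 ± 0.12, FDR 3.74e-09) and was 3.19-fold higher with 32-134D than with vehicle at 1% O2 (log2 fold change 1.67 ± 0.12, FDR 6.83e-08). Against vehicle at 20% O2 the 32-134D libraries overlapped, with a log2 difference of -0.37 (95% interval -0.62 to -0.12, FDR 0.0617).

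SNHG4 (ENSG00000281398, chromosome 5, 139274102 to 139284899), the host of SNORA74A and SNORA74D, had 7.03, 8.17 and 8.42 CPM in vehicle at 20% O2, 2.33, 2.45 and 2.0 CPM in vehicle at 1% O2 and 6.61, 8.11 and 10.6 CPM with 32-134D. It fell 3.49-fold in hypoxia (log2 fold change -1.80 ± 0.19, FDR 1.35e-06) and had the largest increase with 32-134D, 3.7-fold (log2 fold change 1.89 ± 0.18, FDR 1.03e-06). SNHG26, the host of SNORD93, had 6.6, 8.17 and 6.11 CPM in vehicle at 20% O2, 2.92, 2.64 and 2.94 CPM in vehicle at 1% O2 and 5.67, 5.39 and 5.76 CPM with 32-134D. The groups of SNHG26 were separate, with log2 fold changes of -1.25 ± 0.16 in hypoxia (FDR 7.54e-06) and 0.98 ± 0.15 with 32-134D (FDR 7.93e-05).

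SNHG3, the host of SNORA73A and SNORA73B, which are copies of the U17 RNA used in processing of ribosomal RNA precursors, had 17.9, 16.2 and 16.8 CPM in vehicle at 20% O2, 11.2, 8.86 and 8.12 CPM in vehicle at 1% O2 and 17.6, 17.3 and 19.3 CPM with 32-134D. Vehicle at 1% O2 was below both other groups, and the log2 fold changes were -0.85 ± 0.13 in hypoxia (FDR 3.87e-05) and 0.94 ± 0.12 with 32-134D (FDR 1.68e-05). SNHG31 was scarce, with 0.502, 1.1 and 0.973 CPM in vehicle at 20% O2, 0.265, 0.377 and 0.207 CPM in vehicle at 1% O2 and 0.737, 0.673 and 0.686 CPM with 32-134D, from a total of 131 reads. The SNHG31 changes of -1.60 ± 0.39 on the log2 scale in hypoxia (FDR 0.00273) and 1.33 ± 0.37 with 32-134D (FDR 0.00785) passed the thresholds with wide intervals, -2.43 to -0.77 and 0.54 to 2.12. SNHG20, the host of SCARNA16, had 8.1, 7.22 and 7.06 CPM in vehicle at 20% O2, 5.22, 5.19 and 4.32 CPM in vehicle at 1% O2 and 6.47, 6.3 and 7.23 CPM with 32-134D. It fell by 0.60 on the log2 scale in hypoxia (FDR 0.00228), near the fold threshold and below it without replicate 3 of vehicle at 1% O2 (-0.53). The SNHG20 call was also lost without a filter beyond 1 count (-0.57) and with all libraries thinned to the smallest (-0.58). SNHG20 differed by 0.44 with 32-134D, where it was not called.

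The 10 genes that were not called in hypoxia had log2 fold changes from -0.92 to 0.56. Among them, SNHG8, SNHG17, SNHG11 and SNHG10 passed the FDR and not the fold threshold. SNHG17, the host of the SNORA71 family, had group means of 56.4 ± 4.64, 83.2 ± 3.13 and 67.8 ± 2.37 CPM (SD, n = 3) in vehicle at 20% O2, vehicle at 1% O2 and 32-134D, with a log2 difference of 0.55 in hypoxia and an interval of 0.39 to 0.72. SNHG8, the host of SNORA24, had 14.9 ± 3.79, 22.4 ± 1.23 and 18.1 ± 0.86 CPM and a log2 difference of 0.56, which passed the fold threshold without replicate 1 of vehicle at 20% O2 (0.71) or replicate 1 of vehicle at 1% O2 (0.61). SNHG10, the host of SCARNA13, had 3.99 ± 1.32, 2.8 ± 0.447 and 3.58 ± 0.144 CPM and a log2 difference of -0.58, just inside the fold threshold. SNHG10 was called lower in 10 of the other fits, 4 of which left out 1 library (-0.72 to -0.60).

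Values for SNHG11, the host of SNORA60 and SNORA71E, were 16.2 ± 1.08, 19.1 ± 0.593 and 14.7 ± 0.777 CPM. SNHG15, the host of SNORA9, stayed within 9.51 to 14.3 CPM over all libraries, and its log2 difference in hypoxia had an interval of -0.26 to 0.40. SNHG30, the host of SNORD7, had 7.36 ± 0.476, 8.67 ± 0.43 and 7.58 ± 0.804 CPM. The remaining genes were low: SNHG19 (SNORD60) ran from 3.35 to 4.85 CPM, SNHG9 (SNORA78) from 1.31 to 2.4, SNHG25 (SNORD104) from 0.628 to 1.58 and SNHG22 (SCARNA17) from 0.173 to 0.547 CPM. At these depths a difference as small as the fold threshold could not be told from 0 for SNHG22, whose interval in hypoxia was -1.84 to 0.01.

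With 32-134D at 1% O2, 5 of the 27 genes were higher than in vehicle at 1% O2, 4 were lower and 18 were not called. Over all genes tested, 16.2% were called higher and 13.7% lower, and the shares of 18.5% and 14.8% among the host genes lie near these. The higher genes were SNHG4, SNHG14, SNHG31, SNHG26 and SNHG3, and the lower genes were SNHG7, SNHG5, ZFAS1 and GAS5. The median log2 fold change was -0.29, against -0.01 over all genes tested. This comparison and the hypoxia comparison share the libraries of vehicle at 1% O2, and the values of each are given side by side. SNHG9, not called with all libraries, was lower without replicate 1 of vehicle at 1% O2 (-0.72).

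Between 32-134D at 1% O2 and vehicle at 20% O2, 4 genes were higher, 0 were lower and 23 were not called. Over all genes tested, 3.0% were called higher and 0.516% lower. At an unadjusted p under 0.05, 1 gene was lower, and DESeq2 also called 0 lower. SNHG5, ZFAS1, GAS5 and SNHG7 were the higher genes, with log2 fold changes of 0.88, 0.86, 0.85 and 0.73. In a further 6 genes the FDR was passed and the fold threshold was not, and SNHG16 (0.54) passed both in 3 of the 9 fits that left out 1 library (0.60 to 0.61). For SNHG4 and SNHG3 the log2 differences were 0.09 (interval -0.29 to 0.46) and 0.08 (interval -0.18 to 0.35), and the libraries of the groups overlapped. The median was 0.17, against -0.0028 over all genes tested.

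**Figure D3:**
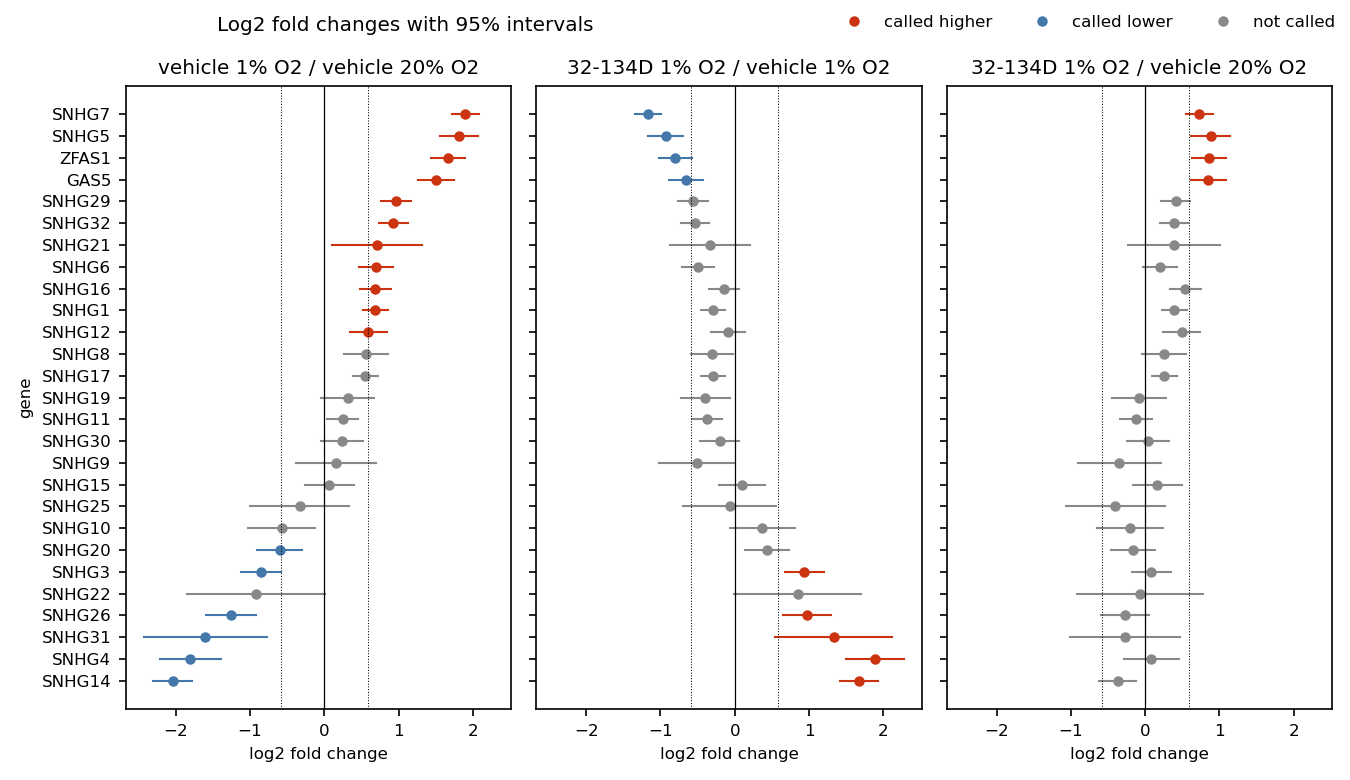
Log2 fold changes (horizontal axis) with 95% intervals for the 27 tested genes in the 3 comparisons; color marks the call and dotted lines mark a 1.5-fold change. SNHG7, SNHG5, ZFAS1 and GAS5 are called in all 3 comparisons, and SNHG14, SNHG4, SNHG31, SNHG26 and SNHG3 in the first 2.

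The host genes were also grouped by the kind of small RNA that RefSeq places in them. Of the 12 tested hosts of box C/D snoRNAs only, 7 rose in hypoxia, 2 fell (SNHG14 and SNHG26) and 3 were not called. Of the 9 tested hosts of H/ACA snoRNAs only, 1 rose (SNHG7), 3 fell (SNHG3, SNHG4 and SNHG31) and 5 were not called. Both genes that carry the 2 kinds, GAS5 and SNHG12, rose, and of the 4 hosts of a scaRNA 1 rose, 1 fell and 2 were not called. Over all genes tested the called shares were 19.5% higher and 20.3% lower, and the counts by kind were not tested.

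The count table also lists the small RNAs as genes of their own. Of 142 small RNAs that GENCODE version 29 places inside the host genes, 126 had 0 counts and 8 had at least 10 counts in all. Small RNAs inside and outside host exons differed: all 45 that lie wholly within annotated exons of the host had 0 counts, and of the 92 outside those exons 14 had counts and 78 had 0. In SNHG3, SNORA73A lies within an exon and had 0 counts, and SNORA73B lies outside and had 69. The 45 include SNORA17A and SNORA17B in SNHG7, SNORD50B in SNHG5 and SNORD12 in ZFAS1, and a count of 0 there is no reading of the mature small RNA. None of the 11 GAS5 snoRNAs is among the 142, and they were not analysed here. How reads that overlap both a host exon and a small RNA were counted was not tested. SNORD104 in SNHG25 had 3.66, 2.04 and 3.10 CPM in vehicle at 20% O2, 1.19, 2.17 and 1.38 CPM in vehicle at 1% O2 and 2.21, 1.89 and 2.06 CPM with 32-134D, a log2 fold change of -0.98 ± 0.26 in hypoxia (FDR 0.00469) with overlapping vehicle libraries. SNORD93 in SNHG26 fell by 2.30 on the log2 scale (FDR 0.0224) on 15 reads at 20% O2 and 5 at 1% O2. SNORA71B in SNHG17 was higher with 32-134D by 1.00 ± 0.32 on the log2 scale (FDR 0.0182), with 35 reads in vehicle at 1% O2 and 69 with 32-134D. SNORA73B, SNORD99, SNORD48, SNORD1B and SNORD12C were tested and not called in either comparison. In these counts, reads from unspliced host RNA and from the mature small RNA cannot be told apart, and the library preparation is not described in enough detail in the labels to say which sizes of RNA were kept.

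Several host genes share sequence with a neighbor, and the sources used here do not give the strand setting of the counting, so reads on shared exons cannot be assigned with certainty. SNHG7 shares 1094 exon bases with DIPK1B on the opposite strand, and DIPK1B changed by -0.29 in hypoxia and 0.14 with 32-134D on the log2 scale without being called. ZFAS1 starts 248 bases from ZNFX1, a helicase-like gene on the opposite strand, whose log2 differences were 0.43 and -0.32, also not called. ZBTB37, which starts 800 bases from GAS5 on the opposite strand and shares no exon base with it, fell in hypoxia (log2 fold change -0.99 ± 0.12, FDR 7.37e-06) and was higher with 32-134D (log2 fold change 1.05 ± 0.12, FDR 5.47e-06), the opposite directions to GAS5. The scarce antisense RNA GAS5-AS1 had log2 fold changes of -1.03 (FDR 0.0281) and 1.02 (FDR 0.0218). SNHG1 starts 188 bases from SLC3A2, the heavy chain of amino acid transporters, which rose by 2.95 on the log2 scale in hypoxia (FDR 5.69e-12), against 0.69 for SNHG1, and fell by 1.17 with 32-134D. LRRC75A, opposite SNHG29, rose by 1.40 in hypoxia (FDR 0.000153), and AC105339.2, which shares 768 exon bases with SNHG21 on the same strand, rose by 1.04 (FDR 0.00688). The neighbors TRNAU1AP of SNHG12, MCMDC2 of SNHG6, FSD2 of SNHG21 and AC015802.4 and AC015802.6 of SNHG16 were not called.

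Beside the genes that fell, the protein-coding neighbors rose or were not called. RCC1, the exchange factor of the GTPase Ran, starts 37 bases from SNHG3 on the same strand with 242 shared exon bases, and it rose by 0.61 on the log2 scale in hypoxia (FDR 2.97e-06). BARD1, the partner of BRCA1, starts 518 bases from SNHG31 on the opposite strand, rose by 1.00 in hypoxia (FDR 2.09e-06) and fell by 0.63 with 32-134D (FDR 0.000164). SEC14L1, which shares 460 exon bases with SNHG20, rose by 0.60 (FDR 3.81e-05). SIL1, opposite SNHG4, had a log2 difference of -0.34 in hypoxia, and MATR3, which starts 350 bases from SNHG4 on the same strand and shares 626 exon bases under 1 of its identifiers, had one of 0.86, neither of them called. RPL10P6, a pseudogene inside SNHG31, rose by 0.75 (FDR 0.00133), and ABCA12 there was not called. The splicing-related gene SNRPN overlaps SNHG14 on the same strand with 141 shared exon bases. SNRPN had a log2 difference of 0.26 in hypoxia (FDR 0.0558). The ubiquitin ligase gene UBE3A on the opposite strand shares 198 exon bases with SNHG14. UBE3A rose by 0.62 in hypoxia (FDR 1.17e-06) and differed by -0.39 with 32-134D without being called. The long noncoding RNA AC124312.2, which overlaps SNHG14 on the opposite strand, had 0 counts in vehicle at 1% O2 and means of 0.274 CPM in vehicle at 20% O2 and 0.205 CPM with 32-134D.

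**Figure D4:**
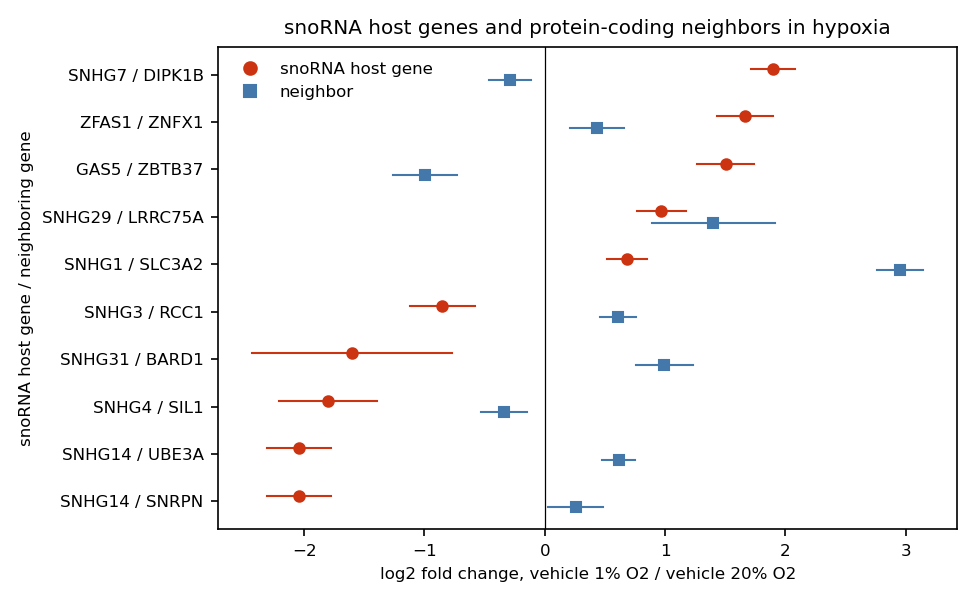
Log2 fold changes in hypoxia (horizontal axis, vehicle at 1% O2 over vehicle at 20% O2) with 95% intervals for 8 pairs and 1 gene with 2 neighbors; circles are host genes and squares are protein-coding neighbors. Host gene and neighbor lie on opposite sides of 0 for SNHG7, GAS5, SNHG3, SNHG31 and SNHG14.

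Exon length was set beside the changes because longer genes moved differently. Over all genes tested, those with over 8 kb of exon had 14.7% called higher and 33.6% called lower in hypoxia, and those of 2 to 4 kb had 25.6% and 18.2%. The host genes that rose had exon lengths of 1053 to 5362 bases and those that fell had 2108 to 43324 bases, with SNHG14 the only host gene above 8 kb. The part of exon length in the SNHG14 result was not tested.

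The promoters of the host genes are shown because members that moved together can be compared at their starts. RefSeq (GRCh38.p14) gave a promoter, here 250 bases before to 50 bases after the start, for 26 of the 30 genes. The first 30 transcribed bases follow for the 6 tested genes that begin with a C and at least 4 further pyrimidines and for 3 others with large changes. Capitals mark an uninterrupted run of C and T that begins with C.
SNHG5, chr6:85678704-85678733, minus strand: CTTTTacgtcggccttcgcgagcgtctggg
ZFAS1, chr20:49278642-49278671, plus strand: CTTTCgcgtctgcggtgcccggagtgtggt
SNHG32, chr6:31834916-31834945, plus strand: CTTTTTgcgaagtgggctcgtgggttggca
SNHG12, chr1:28581844-28581873, minus strand: CCTTTCTCCCCgccgcattcccggtgtcga
SNHG4, chr5:139274101-139274130, plus strand: CCCTTTCCCCTCCggcctctgccggtgctg
SNHG19, chr16:2155329-2155358, minus strand: CTTTTCggggtcgagtccgagggggaagag
SNHG7, chr9:136728155-136728184, minus strand: CTCTgcgtgcgccggaggctgccgtggcgg
GAS5, chr1:173869016-173869045, minus strand: agatgtgtttattttggagcctacaccagc
SNHG14, chr15:24823608-24823637, plus strand: gccgacctcgaatgcggtcctcctgctgca

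Such a start, C followed by at least 4 bases of C or T, was present in 7 of 26 host promoters and in 4.04% of 27305 promoters in the RefSeq table. The 7 were SNHG5, ZFAS1, SNHG32 and SNHG12, which rose in hypoxia, SNHG4, which fell, SNHG19, which was not called, and SNHG18, which had no counts. GAS5 begins with a purine at the RefSeq start, and the start used in these cells was not measured. Against the outermost start of the gene in GENCODE version 29, the RefSeq start lies 163 bases upstream for GAS5 and 154975 bases upstream for SNHG14, and it lies 464, 1259 and 308 bases downstream for ZFAS1, SNHG12 and SNHG32. SNRPN, on the same strand, starts 154946 bases from the GENCODE start of SNHG14. The SNHG14 promoter shown here was not separated from that of SNRPN.

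The core of the HIF binding site was searched as ACGTG and as GCGTG on both strands. ACGTG was in 4 of 26 host promoters (SNHG7, SNHG8, SNHG11 and SNHG30) and in 21.6% of all promoters. GCGTG was in 17 of 26 and in 36.3% of all. Of the 10 promoters of genes that rose, 1 held ACGTG and 7 held GCGTG, and of the 6 promoters of genes that fell, 0 held ACGTG and 5 held GCGTG. The promoters below belong to the genes with the largest called change in each direction and to GAS5 and ZFAS1, with both motifs and their complements in capitals. In SNHG7, CACGTG holds ACGTG on both strands.
SNHG7, chr9:136728135-136728434, minus strand: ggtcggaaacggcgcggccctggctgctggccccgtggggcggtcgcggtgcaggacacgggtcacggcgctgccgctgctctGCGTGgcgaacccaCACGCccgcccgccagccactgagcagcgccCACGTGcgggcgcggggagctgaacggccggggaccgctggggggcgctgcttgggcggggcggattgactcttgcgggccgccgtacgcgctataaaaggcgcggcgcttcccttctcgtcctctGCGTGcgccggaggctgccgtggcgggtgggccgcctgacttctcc
ZFAS1, chr20:49278392-49278691, plus strand: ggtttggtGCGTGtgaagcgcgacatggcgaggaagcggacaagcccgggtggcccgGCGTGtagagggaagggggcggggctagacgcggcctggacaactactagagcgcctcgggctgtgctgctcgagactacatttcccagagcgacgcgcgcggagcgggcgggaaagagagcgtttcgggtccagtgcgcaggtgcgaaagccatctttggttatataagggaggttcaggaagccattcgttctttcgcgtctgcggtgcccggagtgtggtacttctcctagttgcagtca
GAS5, chr1:173868996-173869295, minus strand: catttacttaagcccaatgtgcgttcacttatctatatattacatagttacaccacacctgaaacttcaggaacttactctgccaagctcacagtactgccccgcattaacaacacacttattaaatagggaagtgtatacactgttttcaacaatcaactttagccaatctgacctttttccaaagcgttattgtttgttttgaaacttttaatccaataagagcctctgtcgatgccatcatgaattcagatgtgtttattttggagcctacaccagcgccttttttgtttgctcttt
SNHG14, chr15:24823358-24823657, plus strand: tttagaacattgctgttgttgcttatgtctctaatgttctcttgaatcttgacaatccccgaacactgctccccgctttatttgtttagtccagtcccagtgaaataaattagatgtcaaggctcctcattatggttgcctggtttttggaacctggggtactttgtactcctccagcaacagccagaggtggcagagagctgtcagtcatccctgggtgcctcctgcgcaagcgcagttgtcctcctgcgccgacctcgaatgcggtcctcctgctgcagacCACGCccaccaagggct
SNHG4, chr5:139273851-139274150, plus strand: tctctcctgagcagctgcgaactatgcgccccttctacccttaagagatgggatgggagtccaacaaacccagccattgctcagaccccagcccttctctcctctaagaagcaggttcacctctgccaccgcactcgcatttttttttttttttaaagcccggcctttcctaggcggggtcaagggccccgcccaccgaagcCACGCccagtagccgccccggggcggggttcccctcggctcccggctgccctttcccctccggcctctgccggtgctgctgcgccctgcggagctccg

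SNHG7 has 2 matches to ACGTG, both in that palindrome, and 3 to GCGTG. ZFAS1 has 2 matches to GCGTG, SNHG14 and SNHG4 have 1 each, and GAS5 has none of either motif in this window. A match to so short a motif is a description of the sequence only.

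Most genes for the proteins that package snoRNAs were not called. The counts of the related lists stand against called shares over all genes tested of 19.5% higher and 20.3% lower in hypoxia, and of 16.2% higher and 13.7% lower with 32-134D. Between 32-134D and vehicle at 20% O2 these shares were 3.0% and 0.516%. None of the 4 box C/D core protein genes (FBL, NOP56, NOP58 and SNU13) was called in any of the 3 comparisons by edgeR or DESeq2, and at an unadjusted p under 0.05 3 were higher and 1 was lower in hypoxia. Among the 4 H/ACA core protein genes, NOP10 rose in hypoxia (log2 fold change 0.60 ± 0.09, FDR 7.37e-05), a change near the fold threshold that DESeq2 did not call. Of 10 assembly factor genes, 3 rose and 0 fell in hypoxia: ZNHIT3, which acts in box C/D assembly, by 1.32, NAF1, which acts in H/ACA assembly, by 1.20 and RPAP3 by 0.71 on the log2 scale. With 32-134D, 0 were higher and 2 were lower, ZNHIT3 by 1.01 and NAF1 by 0.65. The lists had medians of 0.46, 0.11 and 0.18 in hypoxia, against 0.00 over all genes tested.

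Factors of nonsense-mediated decay, the pathway that removes several spliced host RNAs, changed in both directions. Of 14 genes, 7 rose and 2 fell in hypoxia, with a median of 0.60, where 19.5% of all genes tested were higher and 20.3% lower. UPF3B, which links the exon junction complex to UPF1, rose by 1.27 (FDR 1.92e-07) and SMG9, a subunit of the SMG1 kinase complex, by 0.97 (FDR 3.98e-08). SMG1, the kinase of UPF1, fell by 1.06 (FDR 6.15e-06), and SMG6, the endonuclease of the pathway, fell by 0.82 (FDR 6.50e-06). SMG1 has near-identical pseudogene copies, so its count is uncertain. With 32-134D, 1 was higher (SMG1, by 1.07) and 4 were lower, UPF3B by 1.07 and SMG9 by 0.79 among them, beside 16.2% and 13.7% of all genes tested.

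Genes that carry snoRNAs in the introns of a protein-coding transcript were counted for comparison, against the same shares over all genes tested. Of 24 ribosomal protein genes with snoRNAs, 23 rose and 0 fell in hypoxia, with a median log2 fold change of 0.78 and a range from 0.25 to 1.05. The largest increases were in RPL17 (1.05 ± 0.09) and RPL10 (0.97 ± 0.10), and ribosomal protein genes have many processed pseudogenes, which can take some of their reads. With 32-134D, 0 were higher and 8 were lower (1 by DESeq2; 24 of 24 at an unadjusted p under 0.05), with a median of -0.52 and the largest decreases in RPSA (-0.66) and RPS3 (-0.64). Of 24 other protein-coding hosts, 10 rose and 2 fell in hypoxia, with a median of 0.40. EIF4A2, a translation initiation helicase, rose by 1.82 and TPT1, the translationally controlled tumor protein gene, by 1.04, and CHD4, a chromatin remodeler, and TNPO2, a nuclear import receptor, fell by 1.11 and 0.63. With 32-134D, CHD4 was higher by 0.91 and EIF4A2 and TPT1 were lower by 1.35 and 0.69. None of the genes of these 6 lists was called past the thresholds between 32-134D and vehicle at 20% O2, by edgeR or by DESeq2. Over all genes tested, 3.0% were called higher and 0.516% lower in that comparison, so 0 of 78 lies near these shares. At an unadjusted p under 0.05 in edgeR, 44 of the 78 genes were higher and 3 lower. The share of all genes tested at that p was not counted.

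**Figure D5:**
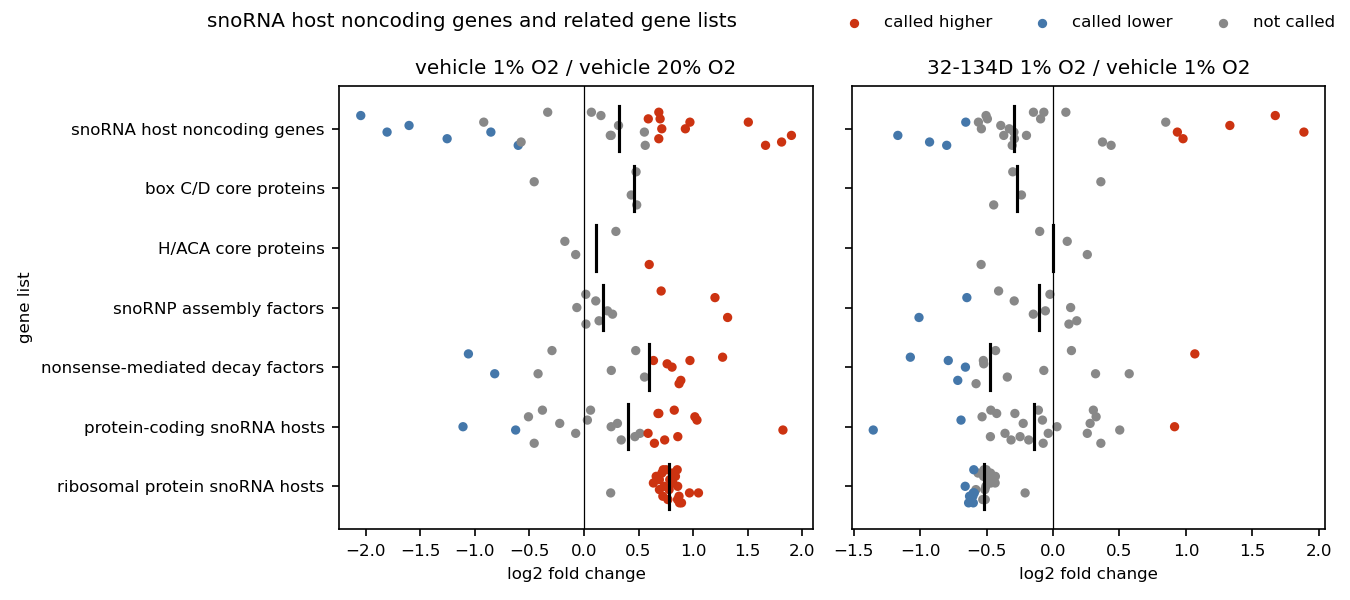
Log2 fold changes (horizontal axis) of single genes in the host gene set and in 6 related lists, in hypoxia (left) and with 32-134D at 1% O2 (right); black bars are list medians and color marks the call. The ribosomal protein hosts lie between 0.25 and 1.05 in hypoxia, whereas the noncoding hosts spread from -2.04 to 1.90.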

How the data were processed

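RNA-seq was done on 9 Hep3B cultures, 3 per group, assigned to groups by the sample labels. What the authors deposited is a single table with the unnormalized read count of each Ensembl gene. According to the study's methods, reads were checked with FastQC, trimmed with Bbduk, mapped with STAR to an Ensembl GRCh38 reference and counted with featureCounts; the submitters' processing notes also name MultiQC and DESeq2. Tool versions, strand setting and the handling of multiply mapped reads are not given in the sources used here. All 9 columns matched a sample by name.

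From these counts, genes with a sum of at least 10 were scaled by TMM and fitted with the quasi-likelihood functions of edgeR 4.0.16 under R 4.3.3, with Benjamini-Hochberg adjustment over all genes. The thresholds (FDR 0.05, fold change 1.5) are the study's, which used DESeq2. CPM use TMM-scaled library sizes, and levels per kilobase use the exon union of GENCODE version 29, an earlier annotation than the one counted. Promoters and hosted small RNAs are from RefSeq, and small RNA sequences are from GENCODE. The procedure was tested on simulated counts. The host genes, lists and tests were chosen with earlier results of these data known. All 30 host genes are named; called ones are given per library, and each list is given by its counts and its 2 largest called changes in each direction. Hepatocyte markers were described by level only, and the HIF target genes and the markers of other cell types also by their calls. Alternatives were DESeq2 1.42.0, other scalings, filters, fold thresholds, fits of the 2 groups compared, thinning, a replicate block and the removal of single libraries. With 3 replicates per group, libraries of 6013980 to 40549699 counts limit the precision most for genes near 1 CPM, and the libraries of a group differed by more than counting error (chi-square per degree of freedom 1.62 to 36.4), so none was counted as a duplicate.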

Additional observations from a re-analysis of the deposited data

How the results depend on the processing

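None of the 30 called log2 fold changes of single host genes changed direction under the alternatives run, and 20 of the 51 that were not called did so under at least 1 of them. The number of host genes higher in hypoxia (11) was 6 with total library size as the scaling, 7 when every library had to hold 10 counts, 4 with a fold change above 2, and 9 to 11 with 1 library left out. With a fold change above 2, 3 genes were higher and 1 was lower with 32-134D, and 0 were higher against vehicle at 20% O2. Without a fold threshold, 10 were lower with 32-134D and 10 were higher against vehicle at 20% O2. The lower count with 32-134D (4) ran from 3 to 6 with 1 library left out. The shares of all genes tested were not counted under these settings. Whether the host genes moved apart from all genes there was not tested.

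The median log2 fold change of the host genes in hypoxia (0.32) was 0.10 with total library size, 0.45 when every library had to hold 10 counts, 0.46 without a filter beyond 1 count, and 0.21 to 0.43 with 1 library left out. The median with 32-134D (-0.29) was -0.23 with DESeq2, -0.11 with total library size, -0.23 with DESeq2 size factors in edgeR, -0.20 when every library had to hold 10 counts, -0.23 with only the 2 groups compared and -0.31 to -0.20 with 1 library left out. It was 0.11, the other sign, when all libraries were thinned to the smallest; the cause was not tested. Total library size moved the median of all genes tested to -0.21 in hypoxia and 0.17 with 32-134D.

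Same-numbered samples did not deviate together over all genes tested (correlations of -0.03 to 0.01). This check includes genes with few reads, so it cannot exclude that the numbers pair the samples. With a replicate block, 10 genes were higher and 6 lower in hypoxia, 5 and 4 with 32-134D, and 4 and 0 against vehicle at 20% O2. The shares of all genes tested were not counted in that fit. SNHG21 lost its call there (FDR 0.073). Depth limits the genes near or under 1 CPM: SNHG31 lost its calls when thinned, with FDRs of 0.19 in hypoxia and 0.067 with 32-134D.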
